A study of Mus musculus with 8 samples.

Results

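The Ly6 genes encode small surface proteins of hematopoietic cells, and 5 of them, *Ly6a*, *Ly6c1*, *Ly6c2*, *Ly6d* and *Ly6e*, were followed here in RNA-seq of control and *Pcgf1*-KO progenitors. They were taken by symbol from the 23284 gene symbols of the deposited tables, and all 5 are listed there. They were selected on their measured levels in these same libraries. Their differences are therefore given as values with their errors. Counts of calls among them are shown only beside those of all genes, and nothing is read from them.

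The libraries came from 2 kinds of mouse progenitors of the strain B6CBAF1/J, with 2 libraries each of control (*Pcgf1* fl/fl) and *Pcgf1*-KO (*Pcgf1* -/-) cells. IdHPCs are bone marrow LSK cells transduced with human *ID3* and maintained on TSt-4 stromal cells with IL-7, SCF and Flt3L. LMPPs are lymphoid-primed multipotent progenitors, sorted from bone marrow and cultured. The labels give the same stromal culture for both. In *Pcgf1*-KO cells the loxP-flanked exons of *Pcgf1*, a subunit of the PCGF1-PRC1 repressor complex, were deleted by ERT2-Cre after addition of 4-hydroxytamoxifen (4-OHT). Control and *Pcgf1*-KO LMPPs were both cultured with 4-OHT, and the controls carried no ERT2-Cre. For the control IdHPCs of the RNA libraries the treatment is not stated in the labels. In another experiment of the study control IdHPCs carried ERT2-Cre and received ethanol in place of 4-OHT. The mice were young adult females. The study describes its RNA-seq duplicates as biologically independent, but the labels do not tie the libraries to animals or to separate IdHPC lines.

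Ly6 proteins share a short disulfide-rich domain with the urokinase receptor, and most are held in the membrane by a lipid anchor. *Ly6a* encodes Sca-1, the antigen by which mouse hematopoietic stem cells and multipotent progenitors are sorted, and which is part of the LSK gate itself. *Ly6c1* and *Ly6c2* encode the Ly-6C antigens of monocytes, some lymphocytes and endothelium. *Ly6d* marks lymphoid progenitors that are turning to the B lineage, and *Ly6e* encodes an antigen of thymocytes and many other cells. Several members are known to be induced by interferon.

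In the NCBIM37 (mm9) annotation the 5 genes lie on chromosome 15. *Ly6d* is at chr15:74592486-74593997 on the minus strand, *Ly6e* at chr15:74785481-74790335 on the plus strand and *Ly6a* at chr15:74825308-74828064 on the minus strand. *Ly6c1* at chr15:74875447-74879260 and *Ly6c2* at chr15:74938590-74942114 follow, both on the minus strand. Their likeness matters for the counts, because a short read from one of the Ly6c genes may align equally well to the other. The coding sequences of *Ly6c1* and *Ly6c2* were identical at 384 of 393 aligned positions (97.7%), against 81.8% for *Ly6c1* and *Ly6a* and 53.4% for *Ly6c1* and *Ly6d*. Gaps count as differences in these shares. Of the 791 windows of 50 bases in spliced *Ly6c1*, 252 (31.9%) also occur in spliced *Ly6c2*.

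The second-to-last exon is the one of the 3 compared that is the same over its whole length in both genes. It is wholly coding, 117 bases long, and stands at chr15:74877783-74877899 in *Ly6c1* and at chr15:74940941-74941057 in *Ly6c2*. It is printed once, 5′ to 3′ on the gene's strand, since the copies are the same.
Ly6c1 and Ly6c2: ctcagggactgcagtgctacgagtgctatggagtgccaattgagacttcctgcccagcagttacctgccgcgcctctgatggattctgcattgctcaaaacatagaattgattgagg

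The coding part of the last exon, 206 bases in each gene, differs at 3 positions, which are in capitals. It is shown because the 3′ exon drew many of the reads of both genes. The positions are chr15:74875835-74876040 for *Ly6c1* and chr15:74938976-74939181 for *Ly6c2*, minus strand.
Ly6c1: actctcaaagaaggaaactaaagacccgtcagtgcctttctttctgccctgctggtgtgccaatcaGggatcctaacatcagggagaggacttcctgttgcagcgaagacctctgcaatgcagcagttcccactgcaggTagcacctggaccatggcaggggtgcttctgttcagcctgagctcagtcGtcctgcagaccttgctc
Ly6c2: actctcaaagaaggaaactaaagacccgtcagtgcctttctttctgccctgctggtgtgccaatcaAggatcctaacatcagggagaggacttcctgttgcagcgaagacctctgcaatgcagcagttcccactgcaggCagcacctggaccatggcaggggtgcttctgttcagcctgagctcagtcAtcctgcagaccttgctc

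Upstream of the genes the likeness is lower. In RefSeq (GRCm38.p6) the 250 bases before the first start site of each gene were aligned end to end, with gaps counted as differences. They were identical at 164 of 284 positions (57.7%). This share understates the likeness of the bases that pair, because the stretches are offset. A run of 20 bases that they share begins 40 bases before the start site in *Ly6c1* and 65 in *Ly6c2*. Both stretches are given, since the levels of the pair differed in opposite directions in IdHPCs, with the longest run they share, 20 bases, in capitals. They lie on the minus strand at chr15:75048838-75049087 for *Ly6c1* and chr15:75111972-75112221 for *Ly6c2*, in coordinates of GRCm38.p6 and not of the build above. The interferon-type motifs GAS (TTCNNNGAA) and ISRE (GAAANNGAAA), searched on both strands, matched none of the 4 promoters listed for the pair, and 8.30% and 3.44% of all 32851 promoters of the same length in that table.
Ly6c1: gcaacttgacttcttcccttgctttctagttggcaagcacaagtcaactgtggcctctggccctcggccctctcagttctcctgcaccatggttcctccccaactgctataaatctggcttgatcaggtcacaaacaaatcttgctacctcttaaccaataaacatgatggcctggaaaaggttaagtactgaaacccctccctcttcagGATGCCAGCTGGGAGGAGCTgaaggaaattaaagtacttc
Ly6c2: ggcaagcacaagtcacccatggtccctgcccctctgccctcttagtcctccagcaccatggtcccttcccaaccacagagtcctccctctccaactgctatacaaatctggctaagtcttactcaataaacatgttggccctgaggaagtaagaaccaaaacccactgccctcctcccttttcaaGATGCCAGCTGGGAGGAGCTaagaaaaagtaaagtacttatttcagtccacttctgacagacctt

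The values are CPM, given by the authors for each listed exon and summed here per gene. The value of 1 read implies a total of 21252454 to 34898845 reads in the IdHPC libraries, repeated exons included. In the LMPP libraries that total was 13209167 to 17379180. Between 15717645 and 25292626 reads lay on distinct exons of the IdHPC libraries, and between 9611759 and 12569296 on those of the LMPP libraries. *Pcgf1* was read first, as a check of the labels. On *Pcgf1* exons 2 to 7 there were 193 and 173 reads in control IdHPCs and 15 in each *Pcgf1*-KO library. In LMPPs the library labelled control 1 had 84 such reads and that labelled *Pcgf1*-KO 1 had 76, whereas the libraries labelled control 2 and *Pcgf1*-KO 2 had 0. The labels of control 2 and *Pcgf1*-KO 1 thus go against these reads, and each LMPP library is named below by its label and by whether it had such reads. Progenitor markers were present in both cell types. *Flt3* lay between 425 and 631 CPM in IdHPCs and between 366 and 440 CPM in LMPPs, and *Kit* between 28.4 and 51.8 CPM and between 228 and 384 CPM.

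In IdHPCs the family did not move as one. *Ly6a* was higher in both *Pcgf1*-KO libraries than in either control, *Ly6c2* and *Ly6d* were lower in both, and the groups overlapped for *Ly6c1* and *Ly6e*. The groups thus failed to overlap for 3 of the 5 members, beside 46.9% of the 12272 genes tested. At an adjusted p under 0.05 in limma 0 of the 5 were called, beside 0.497% of all genes (61, of which 30 were higher and 31 lower in *Pcgf1*-KO). The split depends on the test, with 450 higher and 159 lower in edgeR's exactTest and 343 and 153 in DESeq2. Since the members were selected on this contrast, nothing is read from either count. The median log2 fold change of the 5 was 0.12, and that of all genes tested 0.01. At an unadjusted p under 0.05 limma had 1779 of the 12272 genes, the background for such counts below.

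*Ly6a* was read at 44.3 and 34.4 CPM in control IdHPCs and at 76.7 and 67.7 CPM in *Pcgf1*-KO IdHPCs. Every *Pcgf1*-KO to control ratio lay between 1.53 and 2.23, and the log2 fold change, taken like all below on log2(CPM + 1), was 0.87 ± 0.23 (SE, n = 2 per group). The transcript of this gate antigen was thus higher in *Pcgf1*-KO, without overlap. Each of the 3 exons of *Ly6a* with more than 1 read had higher CPM in both *Pcgf1*-KO libraries than in either control. The 3′ exon, for one, was at 29.5 and 25.7 CPM in controls and at 51.5 and 47.3 CPM in *Pcgf1*-KO.

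*Ly6d* was read at 296 and 254 CPM in control IdHPCs and at 60.1 and 153 CPM in *Pcgf1*-KO IdHPCs. Both *Pcgf1*-KO values were below both controls, but they differed by more from each other than the controls did. The log2 fold change was -1.50 ± 0.36 (SE, n = 2 per group), and it ran from -2.17 without *Pcgf1*-KO 2 to -0.83 without *Pcgf1*-KO 1. The 3 exons of the gene showed the same order of libraries. Other B lineage genes did not go with it as a group. Of 8 B lineage markers tested, 0 passed the limma test in either direction (1 at an unadjusted p under 0.05), and 2 (*Pax5* and *Blnk*) lay below both controls in both *Pcgf1*-KO libraries, where groups stood apart in either direction for 46.9% of all genes. *Pax5*, the factor that commits cells to the B lineage, was at 6.31 and 3.70 CPM in controls and at 2.42 and 0.423 CPM in *Pcgf1*-KO. *Igll1* and *Vpreb1*, which encode the surrogate light chain of early B cells, had overlapping groups and higher means in *Pcgf1*-KO. *Igll1* was at 3.74 and 30.9 CPM in controls and at 9.94 and 90.5 CPM in *Pcgf1*-KO, and *Vpreb1* at 5.63 and 28.4 CPM in controls and at 12.9 and 73.6 CPM in *Pcgf1*-KO.

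*Ly6e* had the highest CPM of the members, not corrected for length, at 1183 and 1335 CPM in control and 1129 and 1659 CPM in *Pcgf1*-KO IdHPCs. The controls lay between the *Pcgf1*-KO libraries, and the log2 fold change was 0.12 ± 0.25 (SE, n = 2 per group). The high value was that of *Pcgf1*-KO 2, in which 53.1% of *Ly6e* reads fell on its 3′ exon, against 45.9% to 48.6% in the other IdHPC libraries. Over 7863 well-covered genes the 3′ exon held 28.9% of reads in *Pcgf1*-KO 2 and 23.7% to 25.4% in the others. Its part in the *Ly6e* value was not tested. Several listed exons of *Ly6e* overlap, so the sum counts some reads more than once.

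**Figure D1:**
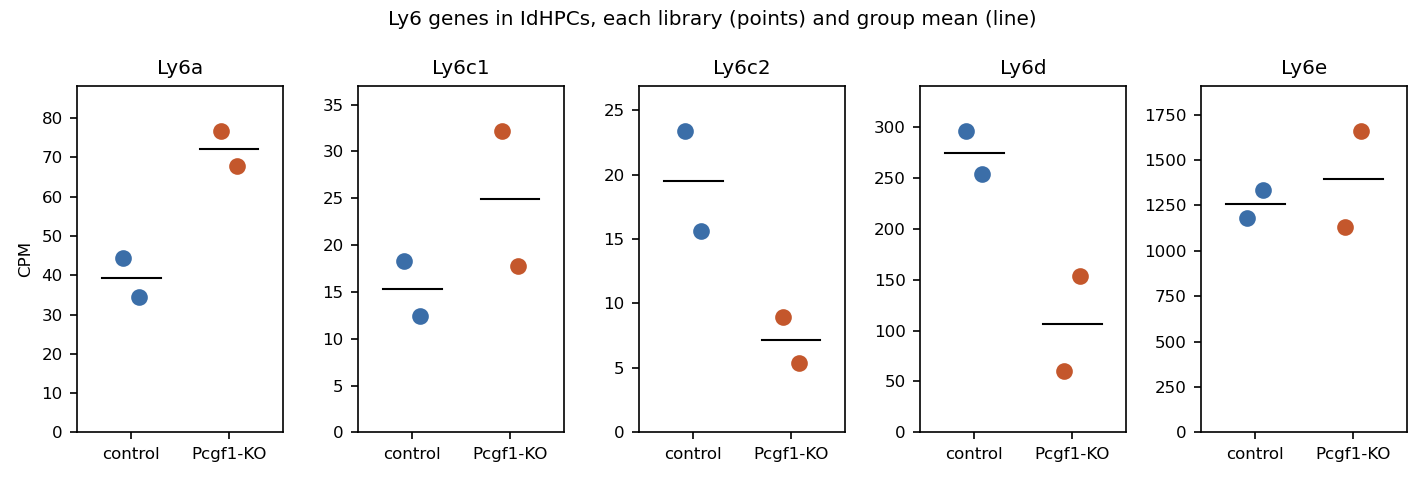
CPM of the 5 Ly6 genes in IdHPCs, a panel for each gene with its own linear axis from 0; points are single libraries (2 control, 2 *Pcgf1*-KO) and lines are group means. The *Pcgf1*-KO points lie above both controls for *Ly6a* (76.7 and 67.7 CPM), below both for *Ly6c2* and *Ly6d*, and overlap the controls for *Ly6c1* and *Ly6e*.

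*Ly6c1* and *Ly6c2* have nearly the same coding sequence, and their levels differed in opposite directions. *Ly6c2* was read at 23.4 and 15.6 CPM in controls and at 8.92 and 5.36 CPM in *Pcgf1*-KO, a log2 fold change of -1.34 ± 0.32 (SE, n = 2 per group). *Ly6c1* was read at 18.3 and 12.4 CPM in controls and at 32.2 and 17.8 CPM in *Pcgf1*-KO, with a log2 fold change of 0.63 ± 0.32 (SE, n = 2 per group). The *Ly6c2* groups did not overlap, and the *Ly6c1* groups did, since *Pcgf1*-KO 2 lay just below control 1. Summed over both genes, 41.6 and 28.1 CPM in controls stood beside 41.1 and 23.2 CPM in *Pcgf1*-KO. The sum had a log2 fold change of -0.14 ± 0.31 (SE, n = 2 per group) and overlapping groups, but it counts the 5′ end of *Ly6c1* several times. The 3′ exons of the pair alone summed to 17.5 and 11.5 CPM in controls and to 13.5 and 8.28 CPM in *Pcgf1*-KO, also with overlapping groups.

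Along the genes the opposite directions were seen in the exons with most reads. The tables list exons without coordinates, and with exons in genome order the first of a gene on the minus strand is its 3′ exon. For *Ly6c1* this was taken as the third listed, since the first and second held at most 5 reads. *Ly6c2* had 472 and 335 reads on its 3′ exon in controls and 111 and 65 in *Pcgf1*-KO, and *Ly6c1* had 99 and 67 in controls and 273 and 111 in *Pcgf1*-KO. The share of *Ly6c2* among the 3′ exon reads of the pair was 82.7% (95% Wilson interval 79.3 to 85.5) and 83.3% (79.4 to 86.7) in controls. In *Pcgf1*-KO it was 28.9% (24.6 to 33.6) and 36.9% (30.2 to 44.3). At the 5′-most listed exon the share was lower throughout, 44.4% (37.3 to 51.7) and 41.2% (32.6 to 50.4) in controls and 11.8% (7.14 to 18.8) and 15.5% (8.38 to 26.9) in *Pcgf1*-KO. At both ends of the genes the control and *Pcgf1*-KO intervals stood apart. The intervals cover counting error only.

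For *Ly6c1* the ends gave different pictures. On its 3′ exon the CPM were 3.03 and 1.92 in controls and 9.59 and 5.22 in *Pcgf1*-KO, which do not overlap. On its 5′-most listed exon they were 3.03 and 1.92 in controls and 3.69 and 2.31 in *Pcgf1*-KO, which do. The 4 exons listed last for *Ly6c1* held nearly equal reads, between 99 and 108 in control 1, so the gene's sum counts this end several times. With the exon of most reads alone the log2 fold change of *Ly6c1* was 1.24. How the counting treated a read that fits both genes is not stated, and reads moved from *Ly6c2* to *Ly6c1* cannot be told apart from a true change in this pair of sums.

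**Figure D2:**
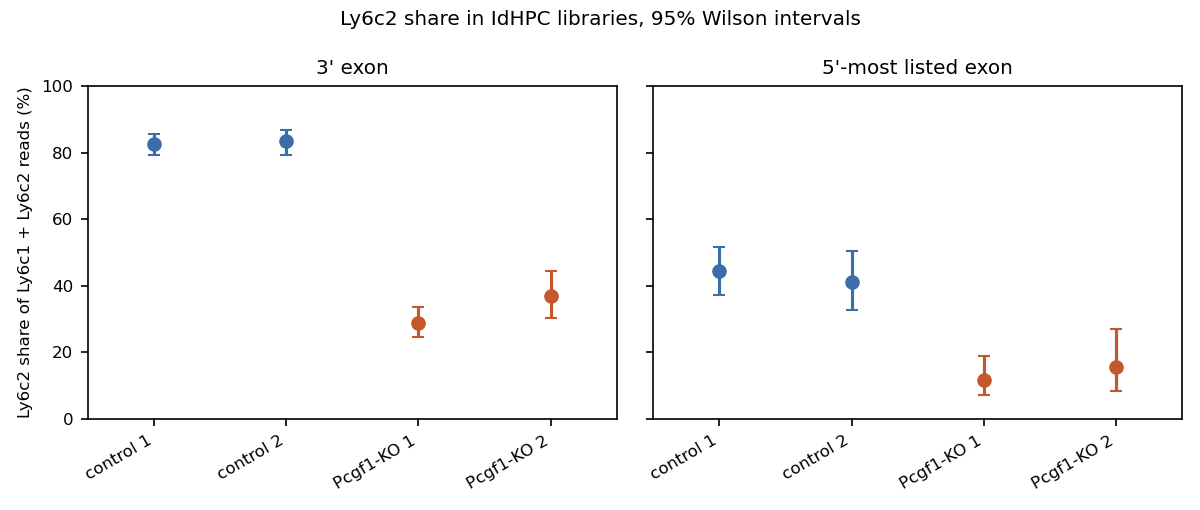
Share of *Ly6c2* among reads of *Ly6c1* and *Ly6c2* (vertical axis, %) in the 4 IdHPC libraries, at the 3′ exon (left) and at the 5′-most listed exon (right); bars are 95% Wilson intervals. Controls sit at 82.7% and 83.3% and *Pcgf1*-KO at 28.9% and 36.9% at the 3′ exon, and the same order holds at the 5′ exon.

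Feeder cell markers were read beside these values. Of 18 feeder markers tested 3 rose (adjusted p in limma 0.028 for *Sparc*, 0.041 for *Serpinh1* and 0.045 for *Col1a2*) and 0 fell. Of the 18, 17 were higher in both *Pcgf1*-KO libraries than in either control, as *Ly6a* was. The sum of *Ly6c1* was not, but its 3′ exon was, at 3.03 and 1.92 CPM in controls and 9.59 and 5.22 CPM in *Pcgf1*-KO. Over all genes 0.497% were called and 46.9% had groups that did not overlap, in either direction. The feeder markers had a median log2 fold change of 0.98, beside 0.01 for all genes. *Col1a1*, the main fibrillar collagen chain, was at 1131 and 1100 CPM in controls and at 2185 and 2386 CPM in *Pcgf1*-KO. The 20 markers together gave 3730 to 4427 CPM in controls and 6632 to 8507 CPM in *Pcgf1*-KO, with *Lum* and *Dcn* at 0 in all 4. Ly6 antigens are also found on stromal and endothelial cells, and the part of feeder RNA in the *Ly6a* and *Ly6c1* values was not tested. In bulk RNA, more cells of a type and more RNA per cell cannot be told apart. Of the 4 endothelial markers *Cdh5* and *Kdr* were at 0 in all 4 IdHPC libraries and *Tek* at no more than 0.105 CPM. *Pecam1*, an adhesion molecule that blood cells also carry, was at 56.9 and 61.1 CPM in controls and at 55.4 and 46.7 CPM in *Pcgf1*-KO. Of the neutrophil markers *S100a8*, *S100a9*, *Ngp* and *Ltf* were at 0, and the 9 listed together gave 2.29 to 4.44 CPM in controls and 3.72 to 5.97 CPM in *Pcgf1*-KO. The progenitor, myeloid progenitor, neutrophil, T lineage, plasmacytoid dendritic and endothelial marker lists were also read together. In limma 0 of 21 of their genes were called in IdHPCs, with 9 at an unadjusted p under 0.05, beside 1779 of all 12272. In LMPPs by label 0 of 32 were called, with 0 at an unadjusted p under 0.05, beside 1 of all 12136.

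By label, the LMPP groups overlapped for every member tested. Here 4 of the 5 members passed the filter of 1 CPM in at least 1 library, and 0 of these 4 had groups that did not overlap, beside 12.2% of 12136 genes. In limma 0 of the 4 were called, beside 0% of all genes (0 genes at an adjusted p under 0.05, and 1 at an unadjusted p under 0.05). On the recovered reads DESeq2 called 0 genes, as did the exactTest and the quasi-likelihood test of edgeR. The log2 fold changes by label were 0.09 ± 0.64 for *Ly6c2*, -0.22 ± 0.78 for *Ly6a*, 0.01 ± 0.26 for *Ly6e* and -0.06 ± 0.53 for *Ly6d* (SE, n = 2 per group). The median of these 4 was -0.02, and that of all genes 0.00 to 2 decimals, -0.00068. For each of the 4, every labelled group held one high and one low library.

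The values instead went with the reads on *Pcgf1* exons 2 to 7. All 4 members were lower in both libraries without such reads than in either library with them, beside 29.9% of all genes tested in that direction. As the pairing of these libraries comes from a readout and not from the labels, and the members were selected with it in view, the values are set out with no test and no group mean.

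*Ly6a* was at 14.7 CPM in each library with *Pcgf1* exon reads (labelled control 1 and *Pcgf1*-KO 1). It was at 4.14 CPM in that labelled control 2 and at 2.80 CPM in that labelled *Pcgf1*-KO 2. The libraries with reads were 3.55 to 5.26 times above those without, the widest ratios of the 4 members. In IdHPCs the order was the opposite, with *Ly6a* higher in *Pcgf1*-KO. Whether these orders differ was not tested, because the tables were normalized separately.

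*Ly6c2* was at 16.1 and 13.7 CPM in the libraries with *Pcgf1* exon reads and at 4.03 and 5.60 CPM in those without. The ratios ran from 2.44 to 3.99, in the same direction as in IdHPCs. *Ly6c1* was all but absent from LMPPs, with 1 read in each library with *Pcgf1* exon reads and 0 in the others, under the floor of 3 reads (0.173 to 0.227 CPM). As *Ly6c2* had 70 to 218 reads in the same libraries, at most 1 read of the pair was assigned to *Ly6c1* in any of them.

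*Ly6d* was at 37.6 and 35.3 CPM in the libraries with *Pcgf1* exon reads and at 14.9 and 14.6 CPM in those without, ratios of 2.37 to 2.57. *Ly6e* was at 1023 and 951 CPM with such reads and at 640 and 698 CPM without, ratios of 1.36 to 1.60. *Ly6e* thus had the narrowest gap of the 4 between the libraries with and without such reads. The 3′ exon share over 7065 well-covered genes was 23.3% and 21.4% in the libraries with such reads and 21.0% and 22.6% in those without.

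**Figure D3:**
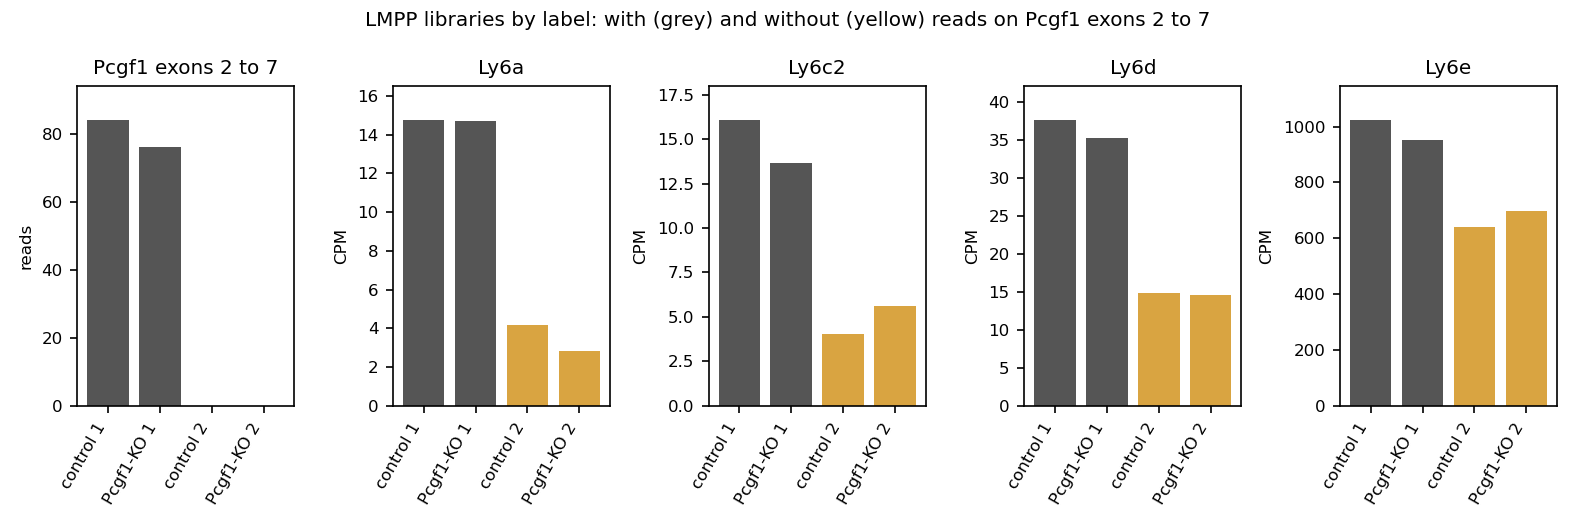
Reads on *Pcgf1* exons 2 to 7 (left panel) and CPM of *Ly6a*, *Ly6c2*, *Ly6d* and *Ly6e* in the 4 LMPP libraries, named by label on the horizontal axis, with linear axes from 0. The libraries labelled control 1 and *Pcgf1*-KO 1 (grey, 84 and 76 *Pcgf1* reads) are above those labelled control 2 and *Pcgf1*-KO 2 (yellow, 0 reads) in every Ly6 panel.

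Feeder RNA was scarce in LMPPs. *Col1a1* was at no more than 0.147 CPM and *Col3a1*, *Col6a1*, *Lum*, *Dcn* and *Postn* were at 0 in all 4 libraries. The sum of the 20 markers, carried by *Pdgfrb* and *Thbs1*, was 67.9 and 73.0 CPM in the libraries with *Pcgf1* exon reads and 86.0 and 104 CPM in those without. The 9 neutrophil and mature myeloid markers gave 170 and 177 CPM with *Pcgf1* exon reads and 75.7 and 79.1 CPM without, and 4 of the 5 tested were lower in both libraries without, beside 29.9% of all genes. *Lyz2*, the lysozyme of macrophages and neutrophils, was at 93.0 and 77.7 CPM with such reads and at 37.1 and 39.6 CPM without. *S100a8* and *Ngp*, which define neutrophils, stayed at or below 0.811 CPM, *S100a9* at or below 1.25 CPM, and *Mmp8*, a collagenase of neutrophils, was at 5.68 and 5.49 CPM with such reads and at 3.74 and 4.47 CPM without. The 10 myeloid progenitor markers gave 3480 and 3505 CPM with such reads and 3032 and 3129 CPM without. Of the 10, 6 were lower in both libraries without, beside 29.9% of all genes, and 1 (*Cebpa*) was higher. *Ctsg*, *Elane* and *Fcgr3* overlapped. *Mpo*, the most abundant, was at 1992 and 1996 CPM with such reads and at 1874 and 1906 CPM without. *Cebpa* was at 152 and 154 CPM with such reads and at 191 and 198 CPM without. *Csf1r*, the receptor for macrophage colony-stimulating factor, was at 114 and 118 CPM with such reads and at 52.9 and 49.2 CPM without. *Irf8*, a transcription factor of monocytes and dendritic cells, was at 545 and 557 CPM with such reads and at 355 and 338 CPM without. The part of more mature myeloid cells in the Ly6 values of LMPPs was not tested.

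The order of levels among members was read per kilobase of exon, so that genes of different length can be set side by side. The sums of *Ly6e* and *Ly6c1* count reads on overlapping exons more than once, so their values per kb may be too high. In control IdHPCs *Ly6e* was at 514 and 580 CPM per kb and *Ly6d* at 428 and 367, which for that reason could not be ordered. *Ly6a* came below *Ly6d* with 54.1 and 42.1 CPM per kb, and *Ly6c2* was at 29.3 and 19.7 and *Ly6c1* at 21.8 and 14.8. In *Pcgf1*-KO IdHPCs *Ly6d* (87.0 and 222 CPM per kb) overlapped with *Ly6a* (93.6 and 82.7), and *Ly6c1* was at 38.3 and 21.2 and *Ly6c2* at 11.2 and 6.74. The order of *Ly6c1* and *Ly6c2* in IdHPCs cannot be read from these sums. In the 4 LMPP libraries *Ly6e* lay between 278 and 444 CPM per kb and *Ly6d* between 21.1 and 54.4. *Ly6a* (3.42 to 18.0 CPM per kb) and *Ly6c2* (5.06 to 20.2) could not be ordered, and *Ly6c1* was at no more than 0.0878. The lower place of *Ly6d* in LMPPs than in control IdHPCs is a difference between tables normalized separately and was not tested.

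Other genes of the Ly6 and urokinase receptor family were mostly at or near 0. Of 40 listed, 34 were found in the tables, 18 of them at 0 in all IdHPC libraries and 16 in all LMPP libraries, and 5 and 4 passed the filter. In limma 0 of the 5 passed the test in IdHPCs (2 at an unadjusted p under 0.05, beside 1779 of 12272 genes). In LMPPs by label 0 of the 4 passed (0 at an unadjusted p under 0.05). The median log2 fold change was 0.18 in IdHPCs and 0.04 in LMPPs. *Lynx1*, a modulator of nicotinic receptors, was at 36.2 and 46.1 CPM in control and 29.7 and 41.0 CPM in *Pcgf1*-KO IdHPCs. *Plaur*, the urokinase receptor itself, was at 20.0 and 16.2 CPM in control and 18.1 and 18.3 CPM in *Pcgf1*-KO. *Slurp1*, a secreted member, was at 0.184 and 0.401 CPM in control and 1.47 and 1.60 CPM in *Pcgf1*-KO, and *Cd59a*, an inhibitor of complement, at 1.04 and 0.573 CPM and at 2.70 and 1.88 CPM. Neighbors on the chromosome gave no shared direction. Of the genes listed between *Arc* and *Zfp41* besides the members, 6 were tested in IdHPCs and 4 in LMPPs, and in limma 0 passed the test in either (1 and 0 at an unadjusted p under 0.05, median log2 fold changes -0.01 and -0.04).

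Because several Ly6 genes answer to interferon, 50 interferon-induced genes were read beside them. In IdHPCs 39 were tested, of which 3 fell and 0 rose, with a median log2 fold change of -0.26 beside 0.01 for all genes, of which 0.497% were called in either direction. In both *Pcgf1*-KO libraries 20 of the 39 lay below both controls and 8 above, beside 46.9% of all genes in either direction. Those that fell were *Gbp4*, *Gbp6* and *Gbp8*, named after their values were seen, which encode guanylate-binding GTPases of antimicrobial defense. *Gbp8* was at 27.7 and 54.3 CPM in controls and at 0.246 and 0.800 CPM in *Pcgf1*-KO. Among the most abundant of the list, *Tap1*, a peptide transporter for antigen presentation, was at 286 and 350 CPM in controls and 150 and 238 CPM in *Pcgf1*-KO, whereas *Ifitm1* was at 1315 and 1338 CPM and at 1379 and 1815 CPM. In LMPPs by label 44 were tested and 0 passed the test in limma (0 at an unadjusted p under 0.05), with a median of 0.00387. By *Pcgf1* exon reads, 34 of these 44 were lower in both libraries without such reads and 4 higher, beside the 29.9% given above for all genes in the lower direction. Thus in LMPPs most of these genes had the same order of libraries as the 4 Ly6 genes, whereas in IdHPCs, where the median of the list was below 0, *Ly6a* was higher and *Ly6c2* and *Ly6d* were lower. The list holds no Ly6 gene.

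**Figure D4:**
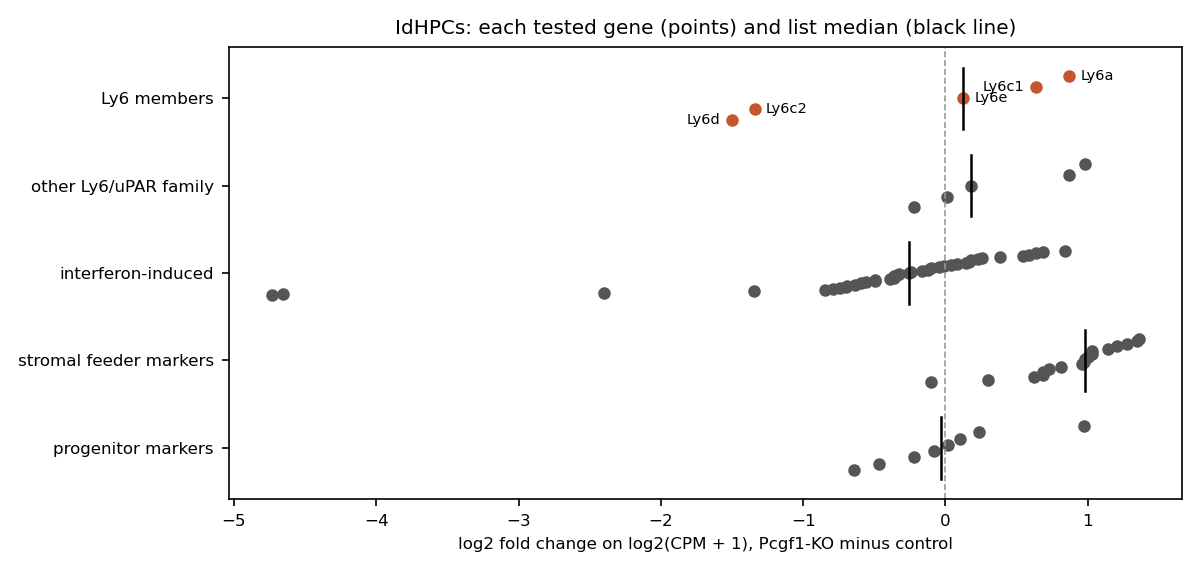
Log2 fold changes (*Pcgf1*-KO minus control, on log2(CPM + 1)) in IdHPCs of the 5 Ly6 genes and of tested genes in 4 lists; points are genes, placed by value within a row, and black lines are medians. *Ly6a* (0.87) lies near the median of the feeder markers (0.98). *Ly6c1* lies toward their low end at 0.63, from a sum that counts its 5′ end several times, and was at 1.24 on its exon of most reads alone. *Ly6c2* (-1.34) and *Ly6d* (-1.50) lie below the median of the interferon-induced genes (-0.26).

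Likeness of pattern was taken over the 8 libraries, as Pearson's r of log2(CPM + 1) after the mean of each cell type was removed, and is a description. The libraries of a cell type share their table and denominator. Each member was compared with genes past the filter in both tables whose SD was at least 0.5 times its own, from 1214 genes for *Ly6d* to 8986 for *Ly6e*, so the ranks hold within those genes. The genes most like *Ly6c1* were *Gas2* (r = 0.99), *Gja1* (r = 0.99) and *Acvr1* (r = 0.98), for which only IdHPC libraries carry weight, as *Ly6c1* was near 0 in LMPPs. *Gja1*, which encodes a gap junction protein, was at 12.9 and 7.19 CPM in control and 24.3 and 12.3 CPM in *Pcgf1*-KO IdHPCs. Most like *Ly6a* were *Slfn2* (r = 0.98), *Zfp365* (r = 0.98) and *Pvt1* (r = 0.98), and most like *Ly6e* were *Arhgap9* (r = 0.99), *BC051537* (r = 0.98) and *Gsdmd* (r = 0.98). For *Ly6c2* they were *Ppfia4* (r = 0.97), *Kmo* (r = 0.97) and *Klrb1f* (r = 0.95). For *Ly6d* they were *Fgd2* (r = 0.94), *Siglech* (r = 0.93) and *Cd300c* (r = 0.91). *Siglech*, a lectin that marks plasmacytoid dendritic cells, was at 3.86 and 2.61 CPM in control and 0.386 and 0.706 CPM in *Pcgf1*-KO IdHPCs. In LMPPs it was at 12.2 and 12.8 CPM in the libraries with *Pcgf1* exon reads and at 6.21 and 4.92 CPM in those without. The plasmacytoid dendritic markers differed among themselves. Of 4 tested in IdHPCs 0 passed the limma test (4 at an unadjusted p under 0.05, beside 1779 of 12272 genes). In both *Pcgf1*-KO libraries 2 (*Siglech* and *Cox6a2*) lay below both controls and 2 (*Ccr9* and *Tcf4*) above, beside 46.9% of all genes in either direction. *Ccr9*, a chemokine receptor, was at 1.96 and 3.75 CPM in control and 7.80 and 13.4 CPM in *Pcgf1*-KO IdHPCs. *Tcf4*, a transcription factor of plasmacytoid dendritic cells, was at 69.7 and 87.0 CPM in control and 102 and 122 CPM in *Pcgf1*-KO IdHPCs. In LMPPs 3 of the 4 were lower in both libraries without *Pcgf1* exon reads and 1 (*Cox6a2*) was higher, beside 29.9% of all genes in the lower direction. Among the members themselves the highest r was that of *Ly6c2* and *Ly6d* (0.76) and the lowest that of *Ly6c1* and *Ly6d* (-0.64).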

How the data were processed

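Poly(A) RNA of 4 IdHPC and 4 LMPP libraries was sequenced, and the authors deposited a table of CPM for each cell type. The paper names HISAT2, Rsubread and edgeR, and the submitters' processing notes name mm9, TopHat2 2.0.13 and edgeR. The annotation and the treatment of multiply aligned reads are not given in the sources used here. The methods describe counts per gene, but each table lists 284716 exons under 23284 symbols, with no coordinates. All deposited CPM values (100%) were whole multiples of the value of 1 read, from 0.0287 to 0.0757 CPM, so that reads could be recovered.

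An exon equal in all libraries to the one before it under the same symbol was counted once, exons were summed per symbol, and each table was fitted alone. limma (version 3.58.1, R 4.3.3) was run, with a trend of variance on mean, on log2(CPM + 1) of genes with a CPM of at least 1 in at least 1 library, with Benjamini-Hochberg adjustment (threshold 0.05). The study describes its duplicates as biologically independent, and the labels only number them. The limma p-values set the difference of group means against the spread of libraries within groups, with variances drawn toward a trend over all genes. As the labels do not tie libraries to animals or lines, it is not known which variation that spread holds. edgeR (version 4.0.16) and DESeq2 (version 1.42.0) were run on recovered reads as alternatives, and all tools were tested on simulated data. Sequences were compared with Biopython 1.88. Genes named besides the members were *Pcgf1*, at most 6 of each list by highest mean CPM together with genes that a count or a defining role turns on and that were named after their values were seen, and the 3 with the highest correlation to each member. The members and lists were chosen with earlier results of these data known. *Ly6g* was not analysed here. Intervals and floors cover counting error only. The markers were for progenitor, myeloid progenitor, neutrophil and mature myeloid, stromal feeder, B lineage, T lineage, plasmacytoid dendritic and endothelial cells.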

Additional observations from a re-analysis of the deposited data

How the results depend on the processing

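With 2 libraries per group, each value of a member rests on few samples, and the LMPP labels go against the *Pcgf1* reads. In IdHPCs the 61 calls of limma became 4 with no filter on low values, 101 with median-ratio scaling (57 higher and 44 lower), 125 with edgeR's quasi-likelihood test, 496 with DESeq2 and 609 with edgeR's exactTest. Leaving out single libraries gave between 15 (without control 2) and 789 calls (without *Pcgf1*-KO 1), and 136 without *Pcgf1*-KO 2. With only the exon of most reads per gene, an alternative chosen after seeing the data, there were 353. The 3 calls among interferon-induced genes, all lower in *Pcgf1*-KO, became 0 with no filter. They became 6 with DESeq2 (1 higher and 5 lower) and 7 with the exactTest (2 higher and 5 lower). The exactTest called 1 other family gene in IdHPCs, against 0. The higher and lower calls in IdHPCs split as 486 and 187 with the replicate block, 450 and 159 with the exactTest, 343 and 153 with DESeq2, 260 and 93 with the exon of most reads, 94 and 42 without *Pcgf1*-KO 2, 77 and 48 with the quasi-likelihood test, 226 and 563 without *Pcgf1*-KO 1 and 0 and 15 without control 2. The cause was not tested.

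The replicate block (the number in the labels as a further term) gave 673 calls in IdHPCs, against 61, and 3 in LMPPs by label, against 0. Same-numbered deviations correlated at 0.15 in IdHPCs and 0.71 in LMPPs, where number and *Pcgf1* exon reads coincide, and with 2 pairs the samples share only a number.

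The log2 fold changes of *Ly6a* (0.69 to 1.04), *Ly6c2* and *Ly6d* (-2.17 to -0.83) kept their sign in IdHPCs under all 15 alternatives. That of *Ly6c2* was -1.66 to -1.02 with single libraries left out and -0.14 when summed with *Ly6c1*, which also turned the sign of *Ly6c1*. *Ly6e* ran from -0.15 to 0.40. Of the 5 members, 3 passed the threshold with the replicate block (5.48% of all genes called), the exactTest (4.96%), DESeq2 (4.04%) and the exon of most reads (3.07%). Under the other alternatives that kept every library 0 members were called. This contrast chose the members, so these calls are no test of them and nothing is read from them. *Ly6c1* ran from 0.22 to 1.04 in IdHPCs with single libraries left out. In LMPPs by label leaving out single libraries turned the sign of all 4 members tested, from -1.24 to 0.80 for *Ly6a*, -0.80 to 0.97 for *Ly6c2*, -0.70 to 0.58 for *Ly6d* and -0.33 to 0.35 for *Ly6e*.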
